A study of Mus musculus with 12 samples.

Results

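The genes described here encode the voltage-gated sodium channels, the voltage-gated calcium channels and the hyperpolarization-activated cyclic nucleotide-gated (HCN) channels. They were chosen by symbol alone, as the protein-coding mouse genes whose symbol starts with Scn and a digit, Cacna1, Cacna2d, Cacnb and a digit, or Hcn and a digit. The count table held 36 of them, and 31 passed the expression filter that left 14008 genes for testing. Those 31 were 7 of 10 sodium channel alpha subunit genes, 4 of 4 sodium channel beta subunit genes, 8 of 10 calcium channel alpha1 genes, and all 4 genes each of the alpha2delta, calcium channel beta and HCN classes.

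Transcripts were measured in the right hippocampus, taken whole, of APP/PS1 and wild-type (WT) C57BL/6J mice aged 4.5 months. Each sex had 4 APP/PS1 and 2 WT animals, so that 12 libraries were made, each from 1 mouse. APP/PS1 mice are an amyloid model of Alzheimer's disease that carries a chimeric mouse/human APP with the Swedish mutations and a second, human transgene, both driven by a prion promoter element. The comparisons asked which channel transcripts differed between APP/PS1 and WT, in each sex and over both, and whether the sexes differed in that respect. WT groups of 2 animals limit the precision within a sex.

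Neurons fire action potentials when sodium channel alpha subunits open, and the beta subunits tune their gating and anchor them in the membrane. Calcium channel alpha1 subunits form the pore through which calcium enters to trigger transmitter release and signalling to the nucleus, while alpha2delta and beta subunits bring the channel to the membrane. HCN channels carry a depolarizing current at rest that sets dendritic integration and rhythmic firing in hippocampal pyramidal cells.

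Total counts per library ranged from 36714316 to 50643565. Levels are given as normalized CPM, that is counts scaled to the library size. Ttr, a choroid plexus transcript, was at 3530 to 6362 normalized CPM in 3 libraries, which were WT female 2, APP/PS1 male 2 and APP/PS1 female 1, against 2.69 to 18.3 in the other 9. The 8 choroid plexus markers moved in opposite ways in the sexes without a call: in females 8 of 8 were lower in APP/PS1 (median LFC -0.51, 4 unadjusted p-values under 0.05), in males 6 of 8 were higher (median 0.24, 1), and for the interaction 3 of 8 had an unadjusted p under 0.05. Neuronal markers were abundant in every library, and 0 of 7 pan-neuronal markers were called between genotypes, with 0 unadjusted p-values under 0.05 and with summed levels of 6572 to 7445 normalized CPM in APP/PS1 and 6867 to 7283 in WT. Of 8 markers of hippocampal principal cells, 6 were lower in APP/PS1 females (median LFC -0.20, 4 unadjusted p-values under 0.05) and 3 in males (median 0.12, 1), and in the averaged comparison Spink8, named for its call, passed the FDR (LFC -0.28, edgeR adjusted p = 0.0988). Of 7 interneuron markers, 5 were lower in females (median LFC -0.12, 2) and 5 in males (median -0.059, 1). Their summed level was 829.3 to 914 normalized CPM in APP/PS1 females and 928 to 947 in WT females. Of 5 thalamic markers tested, 3 were higher in APP/PS1 females (median LFC 0.21, 1 unadjusted p under 0.05) and 1 in males (median -0.13, 1). For the interaction 3 of the thalamic markers had an unadjusted p under 0.05 (median 0.58). All 6 microglial markers were higher in APP/PS1, 4 of them with a false discovery rate (FDR) under 0.1, and their summed level was 398 to 594 normalized CPM in APP/PS1 and 266 to 317 in WT. Gfap, the astrocyte filament gene, rose with a log2 fold change (LFC) of 1.06 (edgeR, adjusted p = 0.0123), and it was the 1 called of 6 astrocyte markers. The counts on the mouse genes App (LFC -0.0026) and Prnp (LFC -0.042) did not pass the test. Whether reads of the chimeric transgene were counted on App was not tested, so the transgenes were not checked here. In whole hippocampus, fewer cells of a type and less RNA per cell cannot be told apart.

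Of the 31 channel genes, 0 differed between APP/PS1 and WT at an FDR under 0.1 when the sexes were averaged (edgeR's quasi-likelihood test), where 1.90% of all genes tested did. In females 0 of 31 passed, against 0.764% of all genes, and in males 0 of 31, against 0.171%. No channel gene passed for the interaction of sex and genotype, and neither did any other gene (0%). Between females and males, averaged over the genotypes, 0 of 31 passed, against 0.0999% of all genes. At an unadjusted p under 0.05, 8 channel genes (25.8%) differed in the averaged comparison, against 9.58% of all genes tested. They included Scn3b, Cacna1c, Cacna1g, Cacna2d2, Cacna2d3, Cacna2d4 and Cacnb4. In females it was 3 (9.68%) against 9.77%, in males 1 against 5.70%, for the interaction 0 against 4.03% and between the sexes 1 against 6.32%. Those in females included Cacna1h and Cacnb4, the 1 in males was Cacna2d4 and that between the sexes was Cacna1h. With edgeR's likelihood ratio test 1 channel gene passed the FDR in the averaged comparison (2.83% of all genes did), 1 in females (2.06%) and 0 in males (1.01%). With DESeq2 it was 1 (2.85%), 2 (2.11%) and 0 (1.04%). In females with DESeq2, Cacna1h was among them.

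In the main fit the limits were narrow for most of these genes. The 31 members had a mean of 1.69 to 395 normalized CPM, and 26 of them had a mean of at least 10. Over those 26, no averaged LFC was larger in size than 0.22, a limit that reached 0.33 (Scn4b) without WT female 2, and the fitted changes ran from -13.4% to 16.1%. The 95% confidence interval lay within a 1.2-fold change either way for 20 of the 26 and within a 1.5-fold change for all 26. For the other 5, among them Scn7a, Scn9a, Cacna2d4 and Hcn4, no interval lay within 1.2-fold and 1 lay within 1.5-fold. The median size of the averaged LFC was 0.063 over the channel genes and 0.058 over all genes tested.

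**Figure D1:**
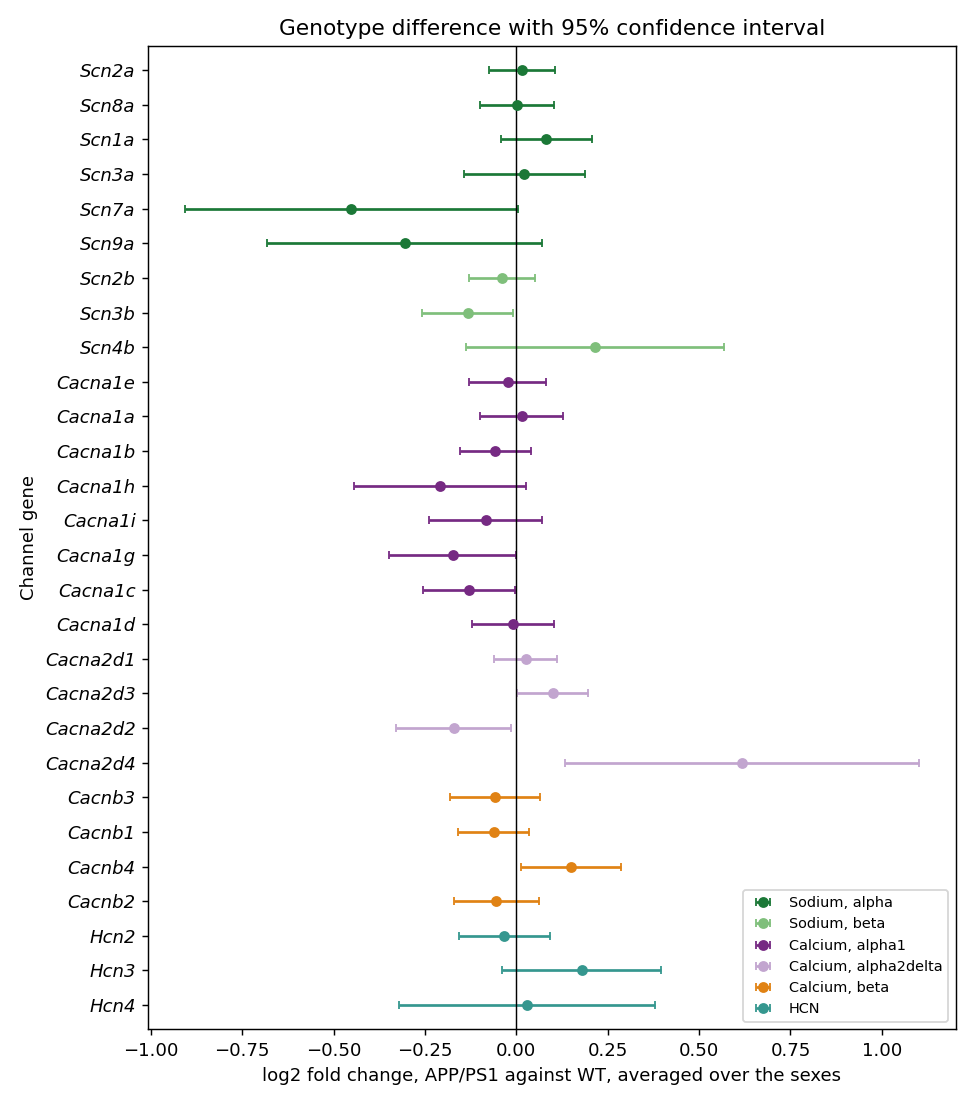
Points show the averaged LFC of APP/PS1 against WT (horizontal axis, log2) for 28 of the 31 channel genes (vertical axis), coloured by subunit class, with bars for the 95% confidence interval. Most intervals are narrow and cross 0, whereas the wide ones belong to genes of low level such as Scn7a, at -0.45, and Cacna2d4, at 0.62.

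Levels are given per kilobase (kb) of exon, as normalized CPM per kb, so that genes of different length can be compared. The length is that of all annotated exons of a gene merged, such as 21191 bases for Cacna1c and 9763 for Cacna1h. Orders, shares and sums depend on this length, which agreement between libraries cannot check. Among the sodium channel alpha genes the order was Scn2a at 30.3, Scn8a at 23.3, Scn1a at 13.6 and Scn3a at 5.33 normalized CPM per kb, and each of these steps held in 12 of 12 libraries. Scn2a and Scn8a encode the main axonal sodium channels of excitatory neurons, and Scn1a encodes the channel best known from fast-spiking interneurons. Below them lay Scn7a at 0.58 and Scn9a at 0.23 normalized CPM per kb. Scn2a made up 41.2% of the summed alpha subunit level and Scn8a 31.7%.

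Of the sodium channel beta genes, Scn2b was at 82.8, Scn3b at 48.1 and Scn4b at 7.26 normalized CPM per kb. The alpha1 genes lay closer together, from Cacna1e (R-type) at 15.0 and Cacna1a (P/Q-type) at 12.4 through Cacna1b (N-type) at 11.5 and the T-type genes Cacna1h at 10.4, Cacna1i at 7.58 and Cacna1g at 5.57 to the L-type genes Cacna1c at 5.41 and Cacna1d at 3.83 normalized CPM per kb. Not every neighbour in this order could be told apart, since Cacna1a exceeded Cacna1b in 11, Cacna1b exceeded Cacna1h in 9 and Cacna1g exceeded Cacna1c in 6 of 12 libraries. Among the accessory subunits, Cacna2d1 stood at 20.7, Cacna2d3 at 12.7, Cacna2d2 at 3.59 and Cacna2d4 at 0.19 normalized CPM per kb, and Cacnb3 at 38.9, Cacnb1 at 27.9, Cacnb4 at 24.2 and Cacnb2 at 4.73. Cacnb1 exceeded Cacnb4 in 10 of 12 libraries. Hcn2 was at 33.0, Hcn3 at 2.99 and Hcn4 at 0.44 normalized CPM per kb, an order that held in 12 of 12 libraries.

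**Figure D2:**
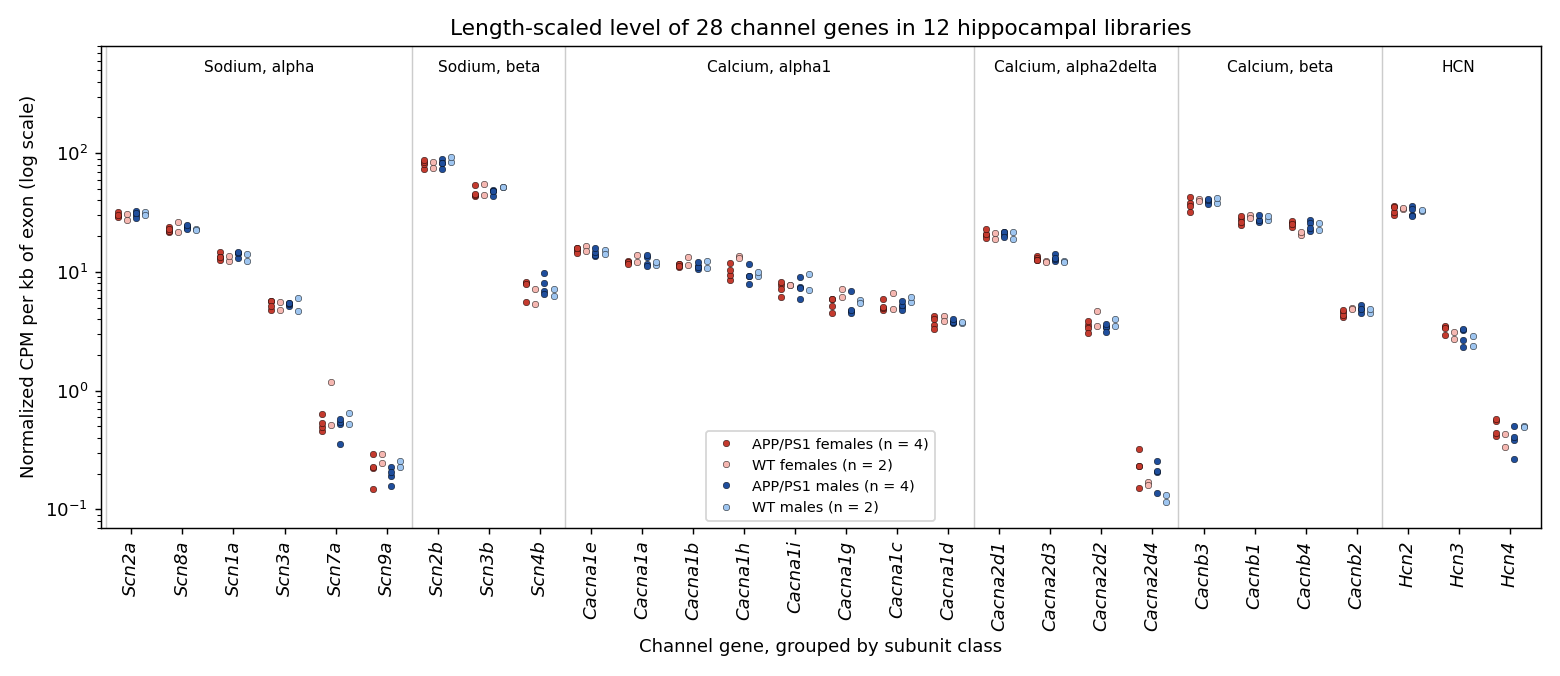
Each point is 1 library, and the vertical axis is the level in normalized CPM per kb of exon on a log scale for 28 of the 31 channel genes, grouped by subunit class along the horizontal axis. The genes drawn span from 0.19 for Cacna2d4 to 82.8 for Scn2b, and for most of them the 4 groups overlap.

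Sums over a class were compared with the spread between animals. The 7 alpha subunit genes summed to 73.7 ± 2.65 (SD, n = 8) normalized CPM per kb in APP/PS1 and 73.2 ± 3.49 (SD, n = 4) in WT. For the 8 alpha1 genes the sums were 70.0 ± 4.64 (SD, n = 8) and 75.0 ± 5.52 (SD, n = 4), and for the HCN genes 42.6 ± 3.19 (SD, n = 8) and 43.1 ± 0.774 (SD, n = 4). The calcium channel beta genes summed to 95.3 ± 4.86 (SD, n = 8) and 96.5 ± 1.66 (SD, n = 4), the alpha2delta genes to 37.6 ± 1.16 and 36.5 ± 1.15, and the sodium channel beta genes to 347 ± 28.6 and 359 ± 6.72. The ratio of Scn8a to Scn2a was 0.77 ± 0.041 (SD, n = 8) in APP/PS1 and 0.77 ± 0.058 (SD, n = 4) in WT. That of Cacnb4 to Cacnb3 was 0.66 ± 0.087 and 0.57 ± 0.080, and that of Cacna1c to Cacna1d 1.37 ± 0.126 and 1.495 ± 0.165. The differences in the alpha1 and alpha2delta sums and in the Cacna1c ratio were similar to the SD, that in the Cacnb4 ratio was somewhat larger than either SD, and that in the sodium channel beta sum was larger than the SD in WT and smaller than that in APP/PS1. The others were smaller than either SD, and none of these sums and ratios was given a test.

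RefSeq promoter windows (build GRCm38.p6) were at hand for 21 of the 31 genes. CpG dinucleotides, the sites of DNA methylation, were counted in the 250 bases before each start, searching for CG, which reads the same on both strands. The median over all 32851 windows was 6, and 17.9% of them held 20 or more. Of the 21 genes, 13 had a window with 20 or more, at levels from 0.44 to 38.9 normalized CPM per kb, and 8 had no such window, at levels from 0.23 to 82.8, so the ranges overlapped. The 4 windows printed here show 1 gene of high and 1 of low level with many CpGs (Scn8a, 30, and Hcn4, 25) and the same with few (Scn2b, 1, and Scn7a, 3). They are written 5′ to 3′ on the strand of the gene, which is plus for Scn8a, Hcn4 and Scn2b and minus for Scn7a, with each CG in capitals. A second start of Scn8a had 9. The RefSeq start of Hcn4 lies 463 bases before the start of the gene in the annotation used for the counts, and the bases after it were found in no transcript there.
Scn8a, chr15:100870395-100870644: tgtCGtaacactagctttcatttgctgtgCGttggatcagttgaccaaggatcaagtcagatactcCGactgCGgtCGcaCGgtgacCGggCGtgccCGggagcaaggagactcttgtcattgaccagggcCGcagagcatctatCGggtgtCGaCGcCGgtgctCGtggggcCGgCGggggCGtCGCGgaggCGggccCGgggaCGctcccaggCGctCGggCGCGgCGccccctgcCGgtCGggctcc
Hcn4, chr9:58822699-58822948: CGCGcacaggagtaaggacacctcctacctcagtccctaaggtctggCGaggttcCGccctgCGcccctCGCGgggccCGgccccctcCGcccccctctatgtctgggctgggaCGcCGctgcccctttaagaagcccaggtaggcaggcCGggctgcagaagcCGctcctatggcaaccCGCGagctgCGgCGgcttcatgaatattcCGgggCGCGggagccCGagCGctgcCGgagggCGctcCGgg
Scn2b, chr9:45117626-45117875: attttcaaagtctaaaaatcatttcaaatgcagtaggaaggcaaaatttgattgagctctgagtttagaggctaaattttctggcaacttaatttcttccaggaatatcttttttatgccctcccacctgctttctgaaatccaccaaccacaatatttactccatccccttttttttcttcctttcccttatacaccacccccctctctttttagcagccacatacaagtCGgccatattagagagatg
Scn7a, chr2:66784911-66785160: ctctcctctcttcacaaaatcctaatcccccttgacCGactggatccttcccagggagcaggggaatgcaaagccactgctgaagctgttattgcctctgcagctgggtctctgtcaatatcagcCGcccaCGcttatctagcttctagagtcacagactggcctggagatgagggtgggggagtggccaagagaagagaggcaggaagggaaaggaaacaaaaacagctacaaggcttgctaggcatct

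Scn2a (ENSMUSG00000075318; chromosome 2, 65620771 to 65767447, plus strand) ran from 364 to 414 normalized CPM in APP/PS1, with a median of 382, and was 393 and 351 in the WT females and 408 and 385 in the WT males. The WT values lay inside the APP/PS1 range but for the second WT female, just below it. Its averaged LFC was 0.015 (SE 0.042), and the interval ran from -5.12% to 7.57%. Scn8a (ENSMUSG00000023033; chromosome 15, 100869858 to 101045938, plus strand) ran from 341 to 392 normalized CPM in APP/PS1, with a median of 365, and was 413 and 341 in the WT females and 361 and 357 in the WT males. Its averaged LFC was 0.0026 (SE 0.047), with an interval from -6.65% to 7.51%. For both channels the ranges of the genotypes overlapped, and the sign of the LFC turned with the settings. Scn3a, Scn2a, Scn1a, Scn9a and Scn7a lie together on chromosome 2, between 65457118 and 66784914. Their averaged LFCs were 0.022, 0.015, 0.082, -0.31 and -0.45 in this order, with 0 of 5 unadjusted p-values under 0.05.

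Scn7a, which encodes a sodium-sensing channel of glia and sensory neurons, ran from 2.62 to 4.63 normalized CPM in APP/PS1, with a median of 3.90. It was at 3.76 and 8.69 in the WT females and 4.74 and 3.82 in the WT males. Only WT female 2 stood apart. The averaged LFC was -0.45 (SE 0.21, edgeR adjusted p = 0.526), with -0.089 when WT female 2 was left out and -0.72 when WT female 1 was. That library is 1 of the 3 with high Ttr, and the other 2, APP/PS1 female 1 and APP/PS1 male 2, were at 3.34 and 3.86 normalized CPM of Scn7a. Without those 3 libraries the LFC was -0.072. The part of choroid plexus in this value was not tested.

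Among the beta subunits, Scn3b ran from 236 to 292 normalized CPM in APP/PS1, with a median of 255, and was 300 and 242 in the WT females and 284 and 282 in the WT males. Most APP/PS1 libraries lay below the WT males, and the WT females spanned nearly the whole range. The averaged LFC of Scn3b was -0.13 (SE 0.058, unadjusted p = 0.0387, edgeR adjusted p = 0.473), with -0.20 when WT female 2 was left out and -0.061 when WT female 1 was. Scn4b, the beta subunit linked to resurgent sodium current, ran from 27.8 to 49.2 normalized CPM in APP/PS1, with a median of 39.7, and from 26.6 to 36.0 in WT. Its averaged LFC was 0.22 (SE 0.15, adjusted p = 0.720), and 5 of 8 APP/PS1 libraries lay above all WT libraries. Without WT female 1 that LFC was 0.11, and without WT female 2 it was 0.33. The abundant Scn2b had an LFC of -0.040 (SE 0.042), with an interval from -8.64% to 3.56%.

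Of the 8 alpha1 genes, 7 had an averaged LFC below 0 and 2 had an unadjusted p under 0.05. Cacna1c, the L-type channel that couples activity to transcription, ran from 102 to 125 normalized CPM in APP/PS1, with a median of 108, and was 141 and 103 in the WT females and 119 and 131 in the WT males. The genotypes overlapped, and WT female 2 was the lowest WT library. The averaged LFC of Cacna1c was -0.13 (SE 0.058, unadjusted p = 0.0448, edgeR adjusted p = 0.499), changing to -0.021 when WT female 1 was left out and to -0.22 when WT female 2 was. Cacna1g, a T-type channel, ran from 45.5 to 69.9 normalized CPM in APP/PS1, with a median of 50.1, and was 62.5 and 72.5 in the WT females and 59.1 and 55.8 in the WT males. In 5 of 8 APP/PS1 libraries Cacna1g lay below all WT libraries, and APP/PS1 male 4 lay above 3 of them. Its averaged LFC was -0.17 (SE 0.079, unadjusted p = 0.0489, edgeR adjusted p = 0.517), and it ran from -0.26, without APP/PS1 male 4, to -0.11, without WT female 2, when single libraries were left out. Without the 3 libraries with high Ttr it was -0.093.

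Cacna1h, another T-type channel and an uncertain one because an annotated antisense gene overlaps it, was at 84.1, 92.6, 101 and 117 normalized CPM in APP/PS1 females and 132 and 128 in WT females. In males it was at 89.6, 90.4, 77.9 and 113 in APP/PS1 and 89.4 and 98.1 in WT. All APP/PS1 females lay below both WT females, and the males overlapped. Female groups apart with male groups overlapping were also seen in Cacna1g, Cacnb2 and Cacnb4. Groups this small separate easily, and the share of all genes tested that do so was not counted. Cacna1h (ENSMUSG00000024112; chromosome 17, 25374285 to 25433783, minus strand) had an LFC of -0.43 in females (SE 0.15, unadjusted p = 0.0190, edgeR adjusted p = 0.382) and 0.012 in males (SE 0.15). The difference between the sexes was -0.44 (SE 0.22, unadjusted p = 0.0703, adjusted p = 0.995), which did not pass. Between females and males, averaged over the genotypes, its LFC was 0.30 (unadjusted p = 0.0181, adjusted p = 0.672), the 1 channel gene with an unadjusted p under 0.05 there. Without APP/PS1 male 4 the averaged LFC was -0.30 and passed the FDR (adjusted p = 0.0833), against -0.21 (adjusted p = 0.578) with all libraries.

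Cacna1e and Cacna1a, the highest alpha1 genes, had averaged LFCs of -0.023 (SE 0.049) and 0.015 (SE 0.052). The R-type gene Cacna1e ran from 345 to 404 normalized CPM in APP/PS1 and from 358 to 417 in WT. The P/Q-type gene Cacna1a, whose exons overlap an antisense gene, ran from 128 to 159 normalized CPM in APP/PS1 and from 130 to 158 in WT. The Cacna1a ranges overlapped almost wholly. Those of Cacna1e overlapped in part, with 2 APP/PS1 libraries below all WT libraries and WT female 1, at 417, above all APP/PS1 libraries.

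Of the 4 alpha2delta genes, 3 had an unadjusted p under 0.05, with LFCs in both directions. Cacna2d3 was the least variable channel gene of all, with a coefficient of variation of 4.80% over 12 libraries. It ran from 108 to 122 normalized CPM in APP/PS1, with a median of 113, and was 109 and 105 in the WT females and 107 and 105 in the WT males. In 7 of 8 APP/PS1 libraries it lay above all WT libraries, and its averaged LFC was 0.099 (SE 0.044, unadjusted p = 0.0438, edgeR adjusted p = 0.496). Cacna2d2, uncertain because of an antisense gene, ran from 24.3 to 30.6 normalized CPM in APP/PS1, with a median of 27.2, and was 27.6 and 37.3 in the WT females and 28.0 and 31.9 in the WT males. In 5 of 8 APP/PS1 libraries it lay below all WT libraries, with an averaged LFC of -0.17 (SE 0.073, unadjusted p = 0.0349, edgeR adjusted p = 0.453). That LFC was -0.071 when WT female 2 was left out and -0.27 when WT female 1 was.

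Cacna2d4, an alpha2delta subunit best known from photoreceptors, was near the floor. It was at 2.18, 3.04, 1.43 and 2.20 normalized CPM in APP/PS1 females and 1.61 and 1.51 in WT females. In males it was at 2.41, 1.94, 1.31 and 2.01 in APP/PS1 and 1.26 and 1.10 in WT. In 6 of 8 APP/PS1 libraries it lay above all WT libraries. Cacna2d4 (ENSMUSG00000041460; chromosome 6, 119236526 to 119352407, plus strand) had an averaged LFC of 0.62 (SE 0.22, unadjusted p = 0.0163, edgeR adjusted p = 0.350). It rested on 48 to 114 counts per library and passed the filter through 5 APP/PS1 and 0 WT libraries, so that a gene kept in this way had to be higher in APP/PS1. Cacna2d1, the main gene of the class and the binding site of gabapentin, had an averaged LFC of 0.026 (SE 0.040), and its interval ran from -4.18% to 8.11%.

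Of the calcium channel beta genes, Cacnb4, the subunit that pairs with P/Q-type channels, was at 232, 241, 213 and 225 normalized CPM in APP/PS1 females and 183 and 196 in WT females. In males it was at 245, 199, 231 and 210 in APP/PS1 and 231 and 201 in WT. The female groups did not overlap and the male groups did, a separation whose share over all genes tested was not counted. Cacnb4 (ENSMUSG00000017412; chromosome 2, 52428320 to 52676831, minus strand), uncertain because of an antisense gene, had an averaged LFC of 0.15 (SE 0.063, unadjusted p = 0.0357, edgeR adjusted p = 0.458), with 0.26 in females (unadjusted p = 0.0154) and 0.041 in males. The interaction did not pass (unadjusted p = 0.116). Cacnb1 and Cacnb3 had averaged LFCs of -0.062 (SE 0.045) and -0.059 (SE 0.057), and Cacnb2 had one of -0.054 (SE 0.053), with an interaction of -0.22 (unadjusted p = 0.0674). Cacnb1 and Cacnb2 also overlap antisense genes.

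**Figure D3:**
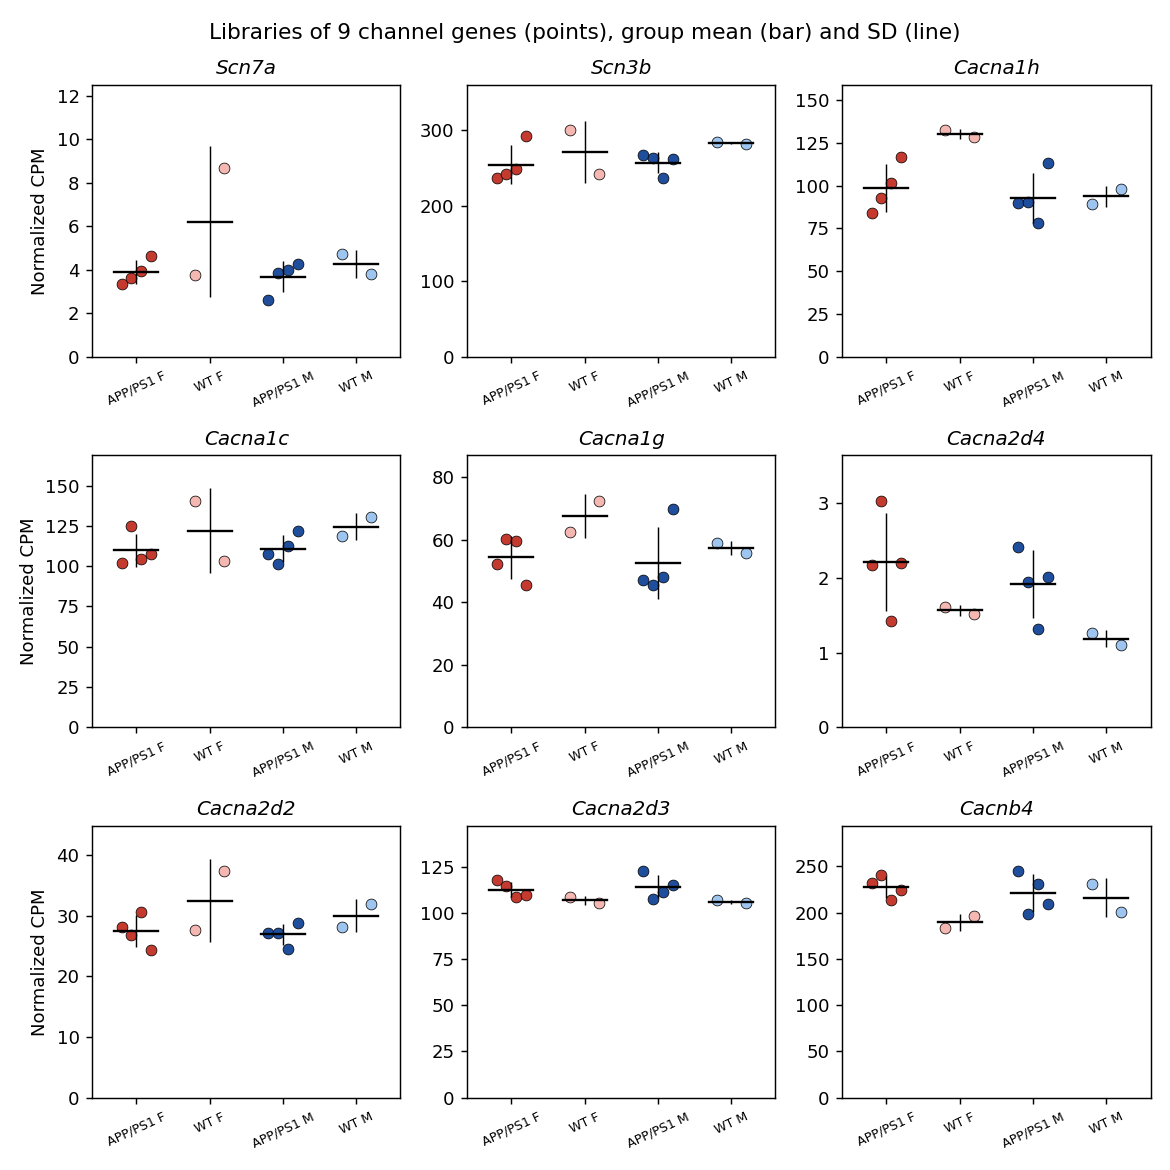
Normalized CPM (vertical axes, from 0) of 9 channel genes in each library, by group along the horizontal axis (F, females and M, males), with bars for group means and vertical lines for the SD. In Cacna1h, Cacnb4 and Cacna1g the female genotypes are apart and the male ones overlap. In Cacna2d3 both sexes are narrowly apart, and in Cacna2d4 only the males are. The share of all genes tested whose groups separate in these ways was not counted. In Scn7a the high mean of WT females rests on 1 library at 8.69.

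The HCN genes gave 0 of 4 unadjusted p-values under 0.05. Hcn2 ran from 94.8 to 114 normalized CPM in APP/PS1, with a median of 106, and from 105 to 110 in WT. Its averaged LFC was -0.033 (SE 0.058), with an interval from -10.3% to 6.54%. Hcn3, which overlaps an antisense gene, ran from 9.77 to 14.6 normalized CPM in APP/PS1 and from 9.79 to 13.0 in WT, with an LFC of 0.18 (SE 0.10, edgeR adjusted p = 0.608), which was 0.11 without WT male 1 and 0.26 without WT female 2. Hcn4, the pacemaker channel of the heart, was at 2.53, 3.41, 3.50 and 2.68 normalized CPM in APP/PS1 females and 2.04 and 2.63 in WT females. In males Hcn4 was at 2.36, 1.63, 3.08 and 2.47 in APP/PS1 and 3.05 and 2.995 in WT. It had an LFC of 0.35 (SE 0.24) in females and -0.29 (SE 0.22) in males, and the interaction of 0.64 (SE 0.33, unadjusted p = 0.0738, adjusted p = 0.995) did not pass.

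By direction alone, 12 channel genes were higher and 19 lower in APP/PS1, with a median averaged LFC of -0.033, beside 7662 higher and 6346 lower and a median of 0.0096 over all genes tested. Of the 8 with an unadjusted p under 0.05, 3 were higher, against 6.26% of all genes, and 5 lower, against 3.32%. In females 10 were higher and 21 lower, with a median of -0.073, and all 8 alpha1 genes were among the lower ones. In males 15 were higher and 16 lower, with a median of -2.8e-05. The female direction rested on 1 library, since without WT female 1 the numbers in females were 19 higher and 11 lower, with a median of 0.019. When single libraries were left out, the number with an unadjusted p under 0.05 in the averaged comparison ran from 1, without WT male 2, to 8, and it was 4 or fewer without any 1 of 7 libraries, which were WT male 2, both WT females, APP/PS1 males 1 and 3 and APP/PS1 females 1 and 2. In females it ran from 2 to 9, with 9 without APP/PS1 female 3, 6 without WT female 2 and 5 without APP/PS1 male 3 or 4. For the interaction it ran from 0 to 6, with 6 without APP/PS1 male 3 and at most 3 otherwise, in males from 0 to 2, and between the sexes from 0 to 4, with 4 without WT female 1 or APP/PS1 male 4. The markers of choroid plexus, principal cells and interneurons were mostly lower in APP/PS1 females as given above, and 3 of 5 thalamic markers were higher. The part of these cell types and tissues in the female values was not tested. For 0 of 31 channel genes did the 8 APP/PS1 and 4 WT libraries not overlap at all, against 1.45% of all genes tested.

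**Figure D4:**
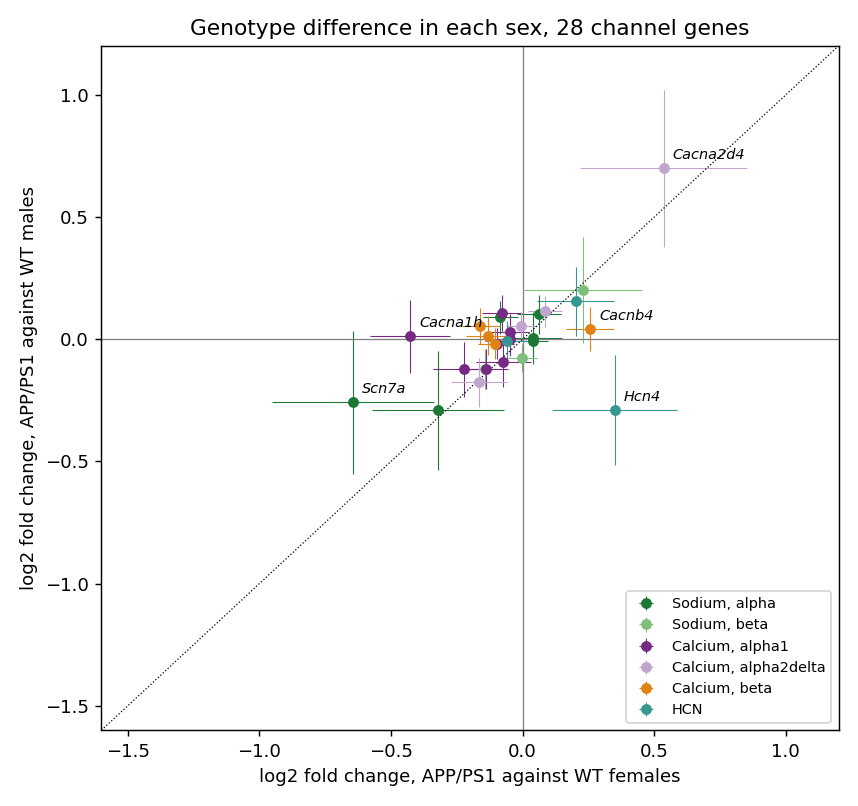
LFC of APP/PS1 against WT in females (horizontal axis) and in males (vertical axis) for 28 of the 31 channel genes, with bars for 1 SE and a dotted line of equal change. Most genes sit close to 0 on both axes, Scn7a and Cacna2d4, both of low level, lie far out with long bars, and Cacna1h and Hcn4 lie away from the dotted line.

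Other genes, most of them known to bind or regulate these channels, were taken from a list of 29, of which 27 passed the filter. They are anchors and growth factor homologues on the sodium channel side, counted with the NALCN complex genes, which make a separate channel. On the calcium channel side they are release-site and calmodulin genes, and 2 are HCN partners. Of the 27, 7 were higher and 20 lower, with a median averaged LFC of -0.044, and 1 passed the FDR, against 1.90% of all genes tested. That gene was Rims1 (ENSMUSG00000041670; chromosome 1, 22286251 to 22805994, minus strand), an active zone scaffold that binds calcium channel beta subunits at the release site. Rims1 ran from 96.4 to 117 normalized CPM in APP/PS1, with a median of 108, and was 95.1 and 86.1 in the WT females and 86.3 and 89.8 in the WT males. All 8 APP/PS1 libraries lay above all 4 WT libraries. Its averaged LFC was 0.27 (SE 0.046, edgeR adjusted p = 0.0125), 0.22 for females (adjusted p = 0.238) and 0.32 for males (adjusted p = 0.133). The call held in 24 of 26 alternative fits and was lost with the replicate block (adjusted p = 0.109) and without both the RUV factors and the 3 libraries with high Ttr (adjusted p = 0.134). Microglial markers also separated the genotypes, and their part in the Rims1 value was not tested. Of the sodium channel partners 2 of 12 and of the calcium channel partners 5 of 13 were higher. The 2 HCN partners, named here after their values were seen, were Pex5l, which carries HCN channels to dendrites, at an LFC of -0.12 (SE 0.040, unadjusted p = 0.0125, adjusted p = 0.312), and Kctd3 at -0.027 (SE 0.039).

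The 5 channel genes under the filter had at most 26 counts in any library. Cacna1s, the channel of skeletal muscle, had 7 to 26 counts, and Scn4a, its sodium counterpart, had 0 to 6. Scn10a and Scn11a, channels of pain-sensing neurons, had 0 to 8 and 0 to 3 counts, and Cacna1f, the retinal channel, had 0 to 10. Differences in these genes were not detectable at this depth.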

How the data were processed

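Trimmomatic, STAR (build GRCm38) and HTSeq were used by the authors for trimming, alignment and counting, and the deposited values are raw counts per Ensembl gene. Versions, the annotation release and the strand and multi-mapping options are not given in the sources used here. The libraries are directional, but without the strand option it is not known whether antisense reads were kept apart. Genes with an antisense overlap are therefore uncertain, and Scn9a and Cacna1d are also among them. Of 55573 identifiers in the table, 55480 were found in release M21 of GENCODE, the source of symbols, exon lengths and positions.

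The filter kept the 14008 genes whose log2 CPM reached 1 in 3 or more samples. Upper-quartile scaling was used, and 2 RUV factors, which estimate unwanted variation, were computed from all tested genes except the top 5000 of a first-pass test over the 4 groups. All 12 libraries entered 1 model with the quasi-likelihood test of edgeR (version 4.0.16 in R 4.3.3), two-sided, with Benjamini-Hochberg adjustment over all genes tested and a threshold of FDR under 0.1. The contrasts were APP/PS1 against WT in females, in males and averaged over the sexes, their difference (interaction), and females against males. Adjusted p-values and LFCs with their SE come from this model. Normalized CPM come from the scaled library sizes without the RUV factors, and their SDs are between libraries. The study used edgeR's likelihood ratio test, which is an alternative here, as are DESeq2 (1.42.0), other scalings, filters and factors, the replicate block and leaving out single libraries. The procedure was tested on simulated data.

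Each library is 1 mouse. Chi-square values of the counts were 15.5 to 73.0 per degree of freedom over 14 pairs of libraries of a group, so no pair agreed within sampling noise. Genes named in the comparisons were, in each class, the 2 with the smallest averaged p and the 2 with the highest level per kb, the 3 with the smallest interaction p, any gene called, and partners called. The remaining members are named for their level or as exceptions, and some members are counted but not reported by name here. The fold limits of 1.2 and 1.5 were set after the values were seen. The members and lists were chosen with earlier results of these data known. Promoter windows were available for 26 of the 36 genes.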

Additional observations from a re-analysis of the deposited data

Results flagged for a closer look

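In 44 group values of 22 named genes, a library was flagged where its gap to the nearest other library took up most of the group's range. Chance flags about 1 in 20 groups. Cacna1g was at 69.87 normalized CPM in APP/PS1 male 4, above the other APP/PS1 males. Scn3b was at 235.9 normalized CPM in APP/PS1 male 3, below the other males of that genotype. Scn4b was at 27.77 normalized CPM in APP/PS1 female 2, below the other APP/PS1 females.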

How the results depend on the processing

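The number of channel genes passing the FDR was 0 in males, for the interaction and between the sexes in all 25 alternatives each. In the averaged comparison it was 1 with edgeR's likelihood ratio test, DESeq2, no expression filter, 1 RUV factor, a first pass on the averaged genotype effect, and the likelihood ratio test without RUV factors, which was chosen after seeing the data. In females it was 1 with the likelihood ratio test, with no expression filter and with the likelihood ratio test without RUV factors, and 2 with DESeq2. With the replicate block it was 2 in the averaged comparison (among them Cacna2d4 at an LFC of 0.90, adjusted p = 0.0824) and 1 in females. Same-numbered libraries, taken as deviations from their group means, correlated between -0.67 and 0.28. In WT groups of 2 such deviations mirror each other. These values therefore cannot show whether same-numbered samples were handled together, and the labels give only a number. Leaving out single libraries gave 0 to 2 averaged and 0 to 1 in females, with 2 without APP/PS1 male 4 (among them Cacna1h). A fit that leaves out a WT library assumes that the lone WT library of that sex varies like the other groups.

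Genes near 0 changed sign. Scn8a was at -0.010 with DESeq2, -0.0080 with TMM scaling, -0.016 without a filter, -0.0014 with a CPM filter, -0.0033 with 1 RUV factor, -0.0056 without RUV factors (with either test), -0.0023 with the other first pass, -0.051 without the choroid plexus-rich libraries and -0.056 when both these and the factors were left out. Cacna1a was, in the same way, at -0.015 without a filter, -0.0072 with 1 factor, -0.0084 without factors (either test), and -0.028 and -0.040 without those libraries. Scn2a was at -0.0022 without a filter and at -0.0073 and -0.0099 without those libraries. Hcn2 was at 0.012 and 0.016 without them. Hcn4 was at -0.0020 with 1 factor and -0.052 with the replicate block. When single libraries were left out, Scn8a ran from -0.060 to 0.071, Scn2a from -0.014 to 0.050, Cacna1a from -0.029 to 0.064, Cacna1e from -0.060 to 0.013, Cacna2d1 from -0.0094 to 0.072, Hcn2 from -0.052 to 0.0021 and Hcn4 from -0.079 to 0.22. Of 598 single-gene values, 553 stayed in direction and side of the threshold.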
